A study of Mus musculus with 6 samples.

Results

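The 50 genes described here encode the subunits and enzymes of chromatin complexes: Polycomb repressive complexes 1 and 2 (PRC1 and PRC2), histone demethylases, the enzymes of histone H3K9 methylation, and the nucleosome remodelling complexes NuRD, SWI/SNF (BAF), INO80 and Tip60-p400, with a pair of CHD remodellers outside NuRD. They were chosen by gene symbol, and all 50 were found among the 38561 rows of the count table. RNA sequencing measured them in 3 fractions of undifferentiated mouse embryonic stem cell (ESC) cultures, sorted by flow cytometry on PDGFRa, a platelet-derived growth factor receptor, and PECAM1, an adhesion molecule of undifferentiated ESCs. In its title the series sets PDGFRa-positive ESCs beside the primitive endoderm precursors of the blastocyst, and the comparisons ask here how the transcripts of the chromatin machinery differ between the fractions. The fractions were PDGFRa-only (PECAM1minPDGFRaplus in the labels), double-positive (PECAM1plusPDGFRaplus) and PECAM1-only (PECAM1plusPDGFRamin), with 2 libraries each, which the labels number Exp1 and Exp2 and which are called replicates 1 and 2. All 3 fractions came from cells of strain 129X1/SvJ x 129S1/Sv at passages 13 to 17, grown without feeder cells on gelatin with serum replacement and leukaemia inhibitory factor. The labels name no treatment or genetic change beyond the sort. RNA of 100000 sorted events was amplified for each library. The labels do not say whether the replicates came from separate cultures, so each p measures the spread between these libraries alone.

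Polycomb proteins keep developmental genes silent in pluripotent cells. PRC2 methylates histone H3K27, PRC1 adds ubiquitin to histone H2A, and CBX subunits of canonical PRC1 read the mark that PRC2 leaves. Demethylases remove methyl groups from histone lysines, H3K9 methyltransferases build heterochromatin and silence transposable elements, and the remodellers use ATP to move, eject or exchange nucleosomes. Many subunits exist as paralogues that take the same place in a complex, so that cell types can differ in which version they use. In ESCs the SWI/SNF complex is known in a form with the ATPase BRG1 (Smarca4) and the scaffold BAF155 (Smarcc1). Primitive endoderm is the epithelium that forms beside the pluripotent epiblast in the blastocyst and later gives the endoderm of the yolk sac.

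The promoters of members with large differences are shown first, because a reader may want to set the transcript levels beside the sequence at the start of the gene. The choice followed the values: of members called between PDGFRa-only and PECAM1-only cells with a mean of at least 5 CPM (counts per 1000000 of the scaled library size), these are the 3 with the largest falls and the 2 with the largest rises. RefSeq (GRCm38.p6) gave a promoter of 250 bases before to 50 bases after an annotated start for 44 of the 50 members. Each line runs 5′ to 3′ on the strand of the gene, and capitals mark letters that match a motif searched on both strands. Phf19 lies at chr2:34913927-34914226, minus strand, Phc1 at chr6:122340178-122340477, minus strand, Kdm5b at chr1:134559928-134560227, plus strand, Ezh1 at chr11:101226414-101226713, minus strand, and Suv39h1 at chrX:8074711-8075010, minus strand. RefSeq lists 2 starts for Suv39h1 and 1 for each of the others.
Phf19: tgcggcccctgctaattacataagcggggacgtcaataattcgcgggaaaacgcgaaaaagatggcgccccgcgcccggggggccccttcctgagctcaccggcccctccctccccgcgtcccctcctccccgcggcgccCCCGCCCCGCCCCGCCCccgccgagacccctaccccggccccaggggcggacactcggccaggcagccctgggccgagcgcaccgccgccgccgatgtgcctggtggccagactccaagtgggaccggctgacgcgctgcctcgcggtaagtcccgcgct
Phc1: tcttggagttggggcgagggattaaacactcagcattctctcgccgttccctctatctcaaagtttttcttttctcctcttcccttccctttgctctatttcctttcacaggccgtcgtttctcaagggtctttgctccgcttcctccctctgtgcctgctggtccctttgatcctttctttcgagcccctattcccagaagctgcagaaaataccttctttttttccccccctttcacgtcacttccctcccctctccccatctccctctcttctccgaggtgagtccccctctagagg
Kdm5b: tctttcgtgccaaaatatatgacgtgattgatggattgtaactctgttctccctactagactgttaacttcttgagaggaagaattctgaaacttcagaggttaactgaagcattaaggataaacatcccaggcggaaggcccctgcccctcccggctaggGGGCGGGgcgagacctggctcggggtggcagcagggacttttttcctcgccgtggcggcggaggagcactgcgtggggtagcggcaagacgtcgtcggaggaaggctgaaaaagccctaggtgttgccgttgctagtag
Ezh1: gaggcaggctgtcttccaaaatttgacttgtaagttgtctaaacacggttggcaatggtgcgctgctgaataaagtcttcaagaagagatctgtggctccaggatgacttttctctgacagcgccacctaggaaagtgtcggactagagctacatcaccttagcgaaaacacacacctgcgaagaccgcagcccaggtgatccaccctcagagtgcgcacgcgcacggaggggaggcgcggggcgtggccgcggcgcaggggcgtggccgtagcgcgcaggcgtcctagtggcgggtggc
Suv39h1: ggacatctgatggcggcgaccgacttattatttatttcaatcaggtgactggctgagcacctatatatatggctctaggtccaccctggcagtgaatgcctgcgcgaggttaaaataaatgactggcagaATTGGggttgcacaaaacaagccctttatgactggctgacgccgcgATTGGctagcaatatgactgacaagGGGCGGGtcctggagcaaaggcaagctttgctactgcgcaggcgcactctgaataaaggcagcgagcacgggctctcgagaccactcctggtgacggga
The promoters of Phf19, Kdm5b, Ezh1 and Suv39h1 held 38, 17, 23 and 15 CG dinucleotides, and that of Phc1 held 9. The median was 26 over the 44 members and 7 over all 32851 promoters of the table, so most of these genes start in CG-rich sequence. Each member entered with a single start, while the values for all promoters include every listed start of every gene, expressed or not. The shares below are set side by side with that difference. The GC box GGGCGGG was found in 28 of the 44 member promoters (63.6%), against 25.6% of all promoters. It occurred 3 times in the Phf19 promoter, in overlapping copies that read on the strand opposite to the gene, and once each in those of Kdm5b and Suv39h1. The CCAAT motif was found in 38.6% of the member promoters and 37.4% of all, and read on the opposite strand at 2 places of the Suv39h1 promoter. The ETS motif CCGGAAG (9.09% of member promoters and 8.86% of all), the E-box CACGTG (13.6% and 7.15%) and the octamer ATGCAAAT (2.27% and 1.74%) had no match in the 5 promoters shown. A match is a description of letters, not a site, and no match says only that these letters are not in this window.

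The libraries held 4809661 and 7273669 counts (PDGFRa-only), 6568777 and 6634022 (double-positive) and 6147345 and 5694077 (PECAM1-only). All 50 members were among the 13909 genes tested, and 48 of them lay above the filter level of 1.57 CPM in every library, the exceptions being Phf19 and Cbx8. Phf19 reached that level in the 4 double-positive and PECAM1-only libraries and Cbx8 in the 2 PDGFRa-only libraries alone, so each entered the tests only through fractions where it is high. Between replicates the correlation of log levels was 0.977 in PDGFRa-only and 0.984 in both other fractions, and a chi-square of their counts was 25.2 per degree of freedom in PDGFRa-only, 5.52 in double-positive and 5.79 in PECAM1-only, so the PDGFRa-only replicates stood farther apart. Exons of 14 members overlap those of another gene. At 95% identity or more, 11 members match a transcript of another gene over at least 200 bases. For Eed, Gatad2b, Kat5, Mtf2, Smarcd1 and Suv39h1 that transcript is of the overlapping gene itself, not of a copy elsewhere. Counts of members with an overlap or match are less certain than the others, and the cases with the longest overlap are named below. Setdb1 matches Gm4349 over 641 bases (99.4%) and Ep400 matches Gm12928 over 569 bases (100%), so this limit holds for both. Marker genes followed the labels. Pdgfra had 509 and 605 CPM in PDGFRa-only libraries, 552 and 518 CPM in double-positive libraries and 2.04 and 1.88 CPM in PECAM1-only libraries, and Pecam1 had 1.57 and 1.51 CPM in PDGFRa-only libraries, 53.8 and 44.9 CPM in double-positive libraries and 166 and 143 CPM in PECAM1-only libraries. The summed level of 10 primitive endoderm genes was 24497 and 25059.7 CPM in PDGFRa-only, 16055 and 17145 CPM in double-positive and 75.6 and 95.8 CPM in PECAM1-only libraries, and all 10 were higher in the PDGFRa-only than in the PECAM1-only fraction. Naive ESC genes, also 10, summed to 265 and 212 CPM, 637 and 552 CPM, and 1679 and 1709 CPM in the same order of fractions, and 9 were lower in PDGFRa-only. Pdgfra is among the endoderm genes and Pecam1 among the naive ESC genes, so the sort itself set their direction. Some others lay below the filter level in 1 fraction and so had to differ in that direction. Examples are Gata4, Sox17 and Foxa2 in PECAM1-only and Nanog, Sox2 and Prdm14 in PDGFRa-only libraries. Of 16 cell cycle genes, 12 were lower and 1 was higher in the PDGFRa-only than in the PECAM1-only fraction, with sums of 3093 and 3277 CPM, 4270 and 4138 CPM, and 5148 and 5095 CPM. Endothelial and blood genes summed to 134 and 84.9 CPM, 84.5 and 68.4 CPM, and 16.3 and 15.4 CPM in the same order. Cdh5 and Kdr made up most of this sum in the PDGFRa-only fraction: Cdh5 had 117 and 61.0 CPM in PDGFRa-only libraries and 0 and 0.157 CPM in PECAM1-only libraries, Kdr had 8.08 and 13.4 CPM in PDGFRa-only libraries and 0.582 and 0.470 CPM in PECAM1-only libraries, and both were called higher, while Tek was not called and the other 7 genes were too rare to test, with Ptprc, Erg and Emcn at 0 counts in every library. Trophoblast genes summed to 118 and 93.4 CPM, 85 and 90.8 CPM, and 56.2 and 59.9 CPM. Of the 4 tested, Tead4 was higher in PDGFRa-only (log2 fold change over PECAM1-only 3.17 ± 0.21 (SE), adjusted p = 3.25e-11), Tfap2c (-5.63 ± 0.39 (SE), adjusted p = 8.73e-11, edgeR) and Ascl2 (0 counts in both PDGFRa-only libraries) were lower and Eomes was not called. Tfap2c and Ascl2 lay below the filter level in PDGFRa-only libraries, and Cdh5 and Kdr in PECAM1-only libraries. These genes entered the tests only through fractions where they are high, so their calls were fixed in direction and are no support for the differences. Mesenchymal genes summed to at most 21.3 CPM in any library. The part of these marker differences in the results below was not tested. In bulk libraries, fewer cells of a type and less RNA per cell cannot be told apart.

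Most of the chromatin genes were lower in PDGFRa-only than in PECAM1-only cells. By edgeR's quasi-likelihood test (adjusted p below 0.05, Benjamini-Hochberg over all tested genes), 30 of the 50 fell, 8 rose and 12 were not called. The 30 included the PRC2 subunits Phf19, Jarid2 and Mtf2, the PRC1 subunit Phc1, the demethylase gene Kdm5b and the remodeller gene Ino80. Of these, Phf19 passed the filter on low counts only through the double-positive and PECAM1-only libraries and so had to be lower. The 8 that rose were Ezh1, Suv39h1, Ring1, Ehmt2, Mbd3, Smarcc2, Mta2 and Cbx8, the last of which passed the filter on low counts only through the PDGFRa-only libraries. The median log2 fold change of the 50 was -0.62, against 0.01 for all tested genes. Of all tested genes, 59.0% were called, 30.1% higher and 28.8% lower, against 60.0% lower and 16.0% higher among the members. The split between rises and falls over all genes depended on the scaling: rises were 51.1% of all calls with TMM, 41.5% with upper-quartile scaling (3484 higher, 4916 lower) and 37.8% with library-size scaling (3227 higher, 5318 lower). Upper-quartile scaling moved the median of all genes to -0.20 and that of the members to -0.82, and library-size scaling moved them to -0.28 and -0.91.

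**Figure D1:**
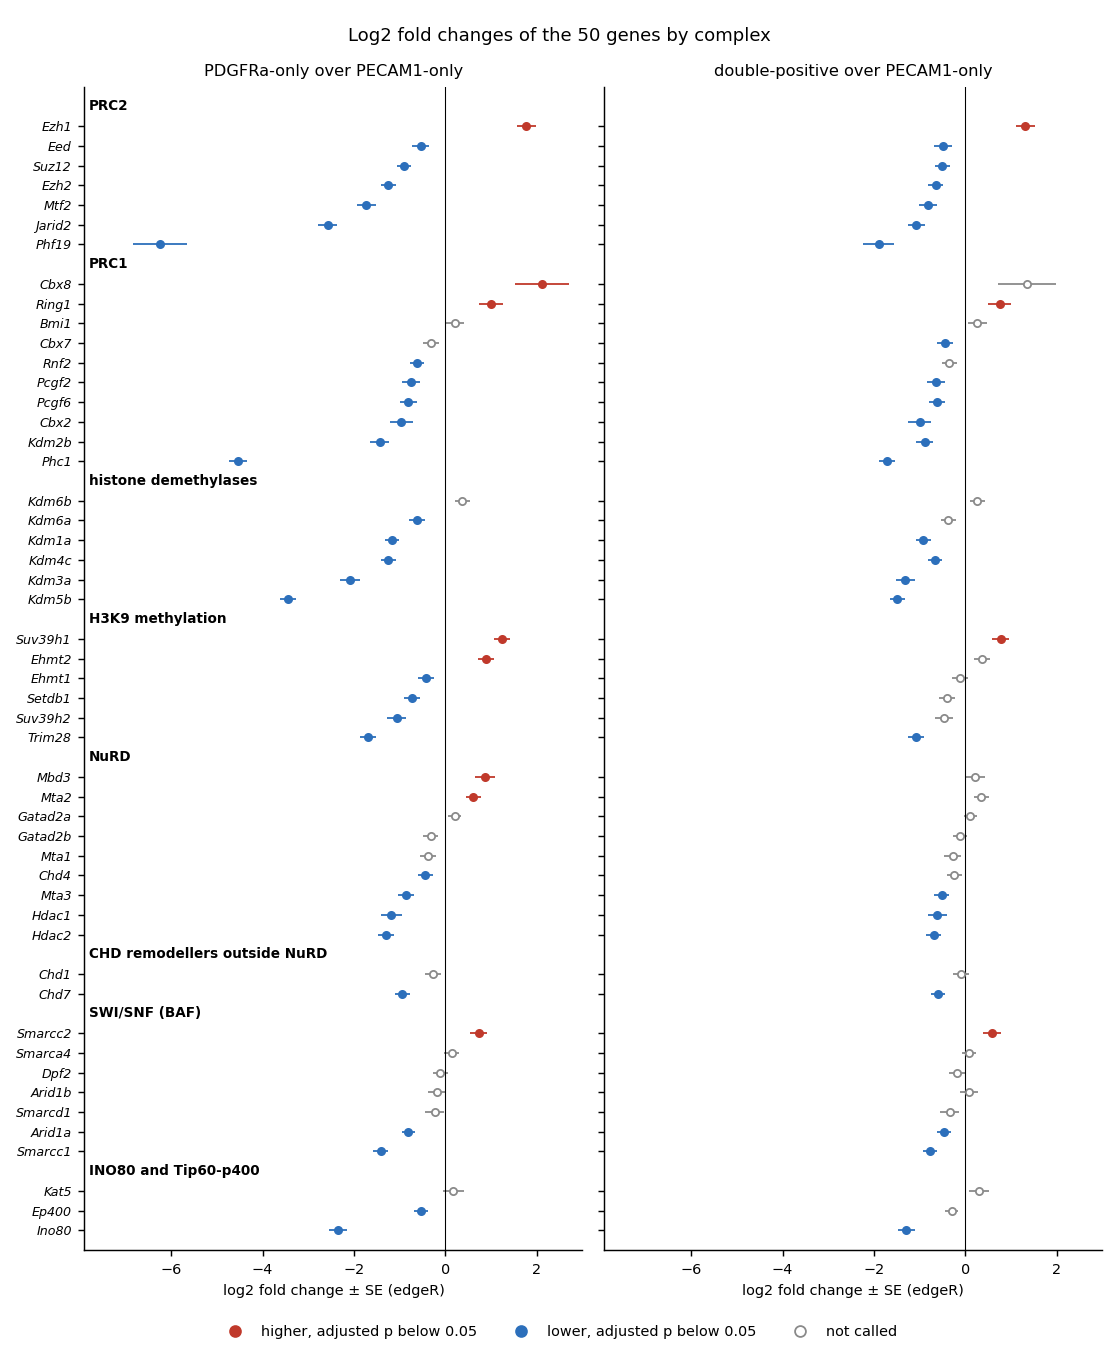
Log2 fold change with its SE (edgeR) of each of the 50 genes, grouped by complex and sorted within it, for PDGFRa-only over PECAM1-only (left) and double-positive over PECAM1-only (right). Filled points passed an adjusted p of 0.05, red for higher and blue for lower; blue points outnumber red ones in both panels, and in the left panel Phf19 (-6.24) and Phc1 (-4.54) lie farthest to the left. Phf19 entered the tests only through the double-positive and PECAM1-only libraries, and Cbx8 only through the PDGFRa-only ones.

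The PRC2 genes changed throughout, and its catalytic subunits went opposite ways. Of 7 members, 6 were lower in PDGFRa-only than in PECAM1-only cells (85.7%, against 28.8% of all tested genes) and Ezh1 was higher (median -1.25). Of the falls, Phf19 passed the filter on low counts only through the double-positive and PECAM1-only libraries and so had to be lower. Ezh2, the main methyltransferase of PRC2 in dividing cells (GRCm38 chromosome 6, 47530139 to 47595341), had 101 and 124 CPM in PDGFRa-only libraries, 183 and 161 CPM in double-positive libraries and 271 and 268 CPM in PECAM1-only libraries. The fractions did not overlap, and PDGFRa-only had the lowest level (log2 fold change over PECAM1-only -1.25 ± 0.16 (SE), adjusted p = 1.04e-06, edgeR). Its paralogue Ezh1, the enzyme of a PRC2 form known from cells that divide little (GRCm38 chromosome 11, 101191115 to 101226463), ran the other way, with 89.8 and 109.5 CPM in PDGFRa-only libraries, 58.5 and 86.5 CPM in double-positive libraries and 26.2 and 32.3 CPM in PECAM1-only libraries. All PDGFRa-only libraries exceeded all others, by 3.42-fold over PECAM1-only (log2 fold change 1.77 ± 0.21 (SE), adjusted p = 2.46e-07, edgeR).

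The structural subunits of PRC2, Eed and Suz12, had smaller fold changes than the accessory subunits Jarid2, Mtf2 and Phf19. Eed, which binds methylated H3, averaged 79.4 ± 16.6 CPM in PDGFRa-only, 81.8 ± 8.31 CPM in double-positive and 115 ± 29.1 CPM in PECAM1-only libraries (SD, n = 2). Its log2 fold change between PDGFRa-only and PECAM1-only was -0.54 ± 0.19 (SE), adjusted p = 0.0205 by edgeR, a call that was lost without PDGFRa-only replicate 2 (then adjusted p = 0.152) and without PECAM1-only replicate 1 (then adjusted p = 0.413). Suz12, the scaffold of the complex, had 134 and 167 CPM in PDGFRa-only libraries, 184 and 217 CPM in double-positive libraries and 285 and 281 CPM in PECAM1-only libraries and fell (-0.91 ± 0.16 (SE), adjusted p = 6.47e-05, edgeR). Among the accessory subunits, Jarid2, a DNA-binding cofactor of PRC2 (GRCm38 chromosome 13, 44729474 to 44921643), had 121 and 110.4 CPM in PDGFRa-only libraries, 373 and 284 CPM in double-positive libraries and 842 and 541 CPM in PECAM1-only libraries. The 3 fractions were apart for Jarid2, with a log2 fold change of -2.58 ± 0.20 (SE), adjusted p = 7.8e-10 (edgeR) between PDGFRa-only and PECAM1-only. Mtf2 and Phf19 encode Polycomb-like proteins, which bring PRC2 to CG-rich DNA. Mtf2 had 138 and 244 CPM in PDGFRa-only libraries, 381 and 342 CPM in double-positive libraries and 659 and 609 CPM in PECAM1-only libraries and a log2 fold change of -1.73 ± 0.20 (SE), adjusted p = 4.49e-07 (edgeR). The exons of Mtf2 overlap those of Tmed5 on the other strand over 395 bases, and whether counting used strand is not stated.

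Phf19 (GRCm38 chromosome 2, 34893757 to 34914026) was near the limit of detection in PDGFRa-only cells. It had 2 counts in replicate 1 and 0 in replicate 2 of that fraction, or 0.449 and 0 CPM, against 4.25 and 3.91 CPM in double-positive and 12.5 and 18.0 CPM in PECAM1-only libraries. The ratio of summed, scaled counts was 0.0119 against PECAM1-only (exact 95% counting interval 0.00143 to 0.0436) and 0.0443 against double-positive (0.00522 to 0.168). The fitted log2 fold change over PECAM1-only was -6.24 ± 0.59 (SE), adjusted p = 1.07e-08 (edgeR). It was -9.63 without PDGFRa-only replicate 1 and -5.02 without replicate 2, so its size rests on those 2 counts. Over double-positive it was -4.34 ± 0.72 (SE), adjusted p = 0.000199 (edgeR), -7.74 without PDGFRa-only replicate 1 and -3.13 without replicate 2. Phf19 passed the filter on low counts only through the double-positive and PECAM1-only libraries, where it is high. It therefore had to be lower in PDGFRa-only, and its p-values against that fraction are no support for the difference.

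PRC1 genes split by subunit. Of 10 members, 6 fell (60.0%), 2 rose (20.0%) and 2 were not called between PDGFRa-only and PECAM1-only cells (median -0.69). Of the rises, Cbx8 passed the filter on low counts only through the PDGFRa-only libraries and so had to be higher. Over all tested genes, 28.8% fell and 30.1% rose. Phc1 encodes a polyhomeotic protein, whose SAM domain lets PRC1 form chains (GRCm38 chromosome 6, 122317731 to 122340561). It had 31.4 and 25.4 CPM in PDGFRa-only libraries, 223 and 178 CPM in double-positive libraries and 671 and 642 CPM in PECAM1-only libraries. These levels fell into 3 separate ranges, and the PDGFRa-only mean was 4.33% of that of PECAM1-only (log2 fold change -4.54 ± 0.19 (SE), adjusted p = 5.2e-14, edgeR).

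The ubiquitin ligases of PRC1 moved apart. Rnf2 encodes RING1B, the main ligase in ESCs, and averaged 65.1 ± 2.28 CPM in PDGFRa-only, 78.1 ± 2.42 CPM in double-positive and 99.7 ± 5.97 CPM in PECAM1-only libraries (SD, n = 2; log2 fold change between PDGFRa-only and PECAM1-only -0.62 ± 0.16 (SE), adjusted p = 0.00278, edgeR). Ring1, which encodes the related ligase RING1A, had 15.9 and 13.4 CPM in PDGFRa-only libraries, 13.1 and 11.6 CPM in double-positive libraries and 6.55 and 8.15 CPM in PECAM1-only libraries. Every PDGFRa-only library was above every other, with a log2 fold change of 0.99 ± 0.26 (SE), adjusted p = 0.00281 over PECAM1-only (edgeR). The PCGF proteins pair with these ligases and define the form of PRC1. Bmi1, of canonical PRC1, had a log2 change of 0.20 ± 0.21 (SE) and overlapping libraries (adjusted p = 0.415, edgeR), and its counts are uncertain because the copy Gm5946 matches 2579 bases of it at 97.0% identity. Pcgf2, the other canonical one, averaged 41.1 ± 9.83 CPM in PDGFRa-only and 69.1 ± 13.7 CPM in PECAM1-only libraries and fell (-0.76, adjusted p = 0.00296, edgeR), a call that was lost without PECAM1-only replicate 2 (then adjusted p = 0.0787). Pcgf6, of a variant PRC1 that also holds Mga, averaged 55.7 ± 4.68 CPM in PDGFRa-only and 97.3 ± 17.4 CPM in PECAM1-only libraries and fell (-0.81, adjusted p = 0.000549, edgeR). Kdm2b, which binds unmethylated CG islands and brings variant PRC1 to them, had 26.9 and 27.8 CPM in PDGFRa-only libraries, 41.7 and 38.3 CPM in double-positive libraries and 86.3 and 62.1 CPM in PECAM1-only libraries. Its fractions did not overlap (log2 fold change -1.44 ± 0.20 (SE), adjusted p = 2.34e-06, edgeR), and 627 bases of its exons overlap those of Rnf34 on the other strand.

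The CBX genes, whose proteins bind methylated H3K27, differed in level and direction. Cbx7, the CBX gene with the highest level per length in every fraction, averaged 86.1 ± 16.4 CPM in PDGFRa-only, 78.2 ± 3.35 CPM in double-positive and 106 ± 8.25 CPM in PECAM1-only libraries (SD, n = 2) and was not called between PDGFRa-only and PECAM1-only (-0.31 ± 0.17 (SE), adjusted p = 0.13, edgeR). That value passed with upper-quartile scaling (then adjusted p = 0.0146), with library-size scaling (then adjusted p = 0.00514) and without PDGFRa-only replicate 1 (then adjusted p = 0.0187). Cbx2 had 13.0 and 8.91 CPM in PDGFRa-only libraries, 12 and 9.23 CPM in double-positive libraries and 20.8 and 21.5 CPM in PECAM1-only libraries and a log2 fold change of -0.97 ± 0.25 (SE), adjusted p = 0.00245 (edgeR), with overlap between PDGFRa-only and double-positive. Cbx8 was rare, with 10 and 20 counts in PDGFRa-only, 10 and 10 in double-positive and 5 and 3 in PECAM1-only libraries. Its log2 fold change over PECAM1-only was 2.11 ± 0.59 (SE), adjusted p = 0.00412 (edgeR), but it passed the filter on low counts only through the PDGFRa-only libraries, where it is high, and so had to differ, and the call was lost without PECAM1-only replicate 2 (then adjusted p = 0.0515).

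**Figure D2:**
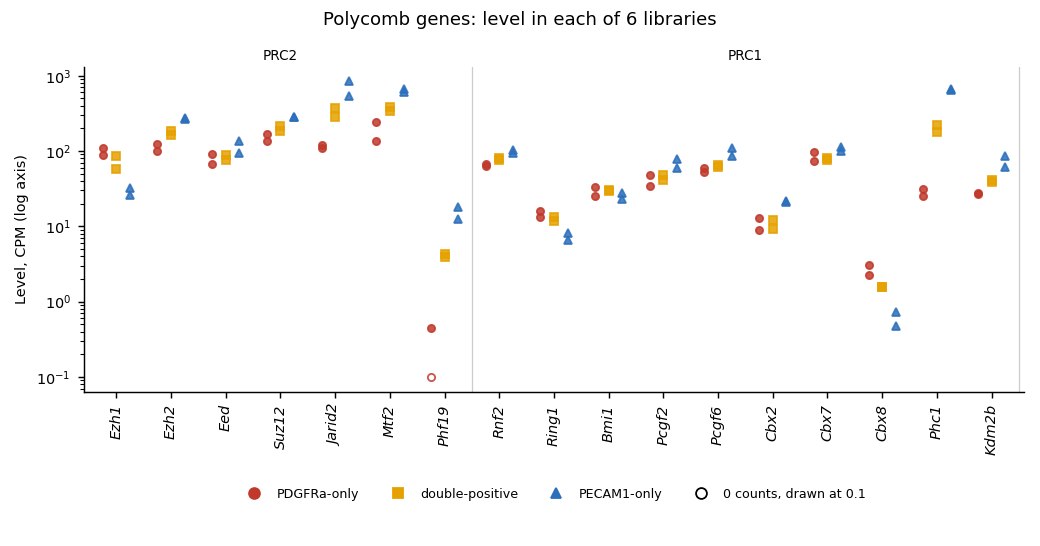
Level in CPM on a log axis of the 7 PRC2 and 10 PRC1 genes in each of the 6 libraries, with PDGFRa-only (circles), double-positive (squares) and PECAM1-only (triangles) drawn from left to right for each gene. For Phc1 the circles lie at 31.4 and 25.4 CPM and the triangles at 671 and 642 CPM, while for Ezh1, Ring1 and Cbx8 the circles lie highest; the open circle is a library with 0 counts of Phf19.

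Of 6 histone demethylase genes, 5 were lower in PDGFRa-only than in PECAM1-only cells and the sixth, Kdm6b, was not called (median -1.21). The share of falls was 83.3%, against 28.8% of all tested genes. Kdm5b, which removes methyl groups from H3K4 (GRCm38 chromosome 1, 134560171 to 134635285), had 56.6 and 56.8 CPM in PDGFRa-only libraries, 225 and 215 CPM in double-positive libraries and 663 and 573 CPM in PECAM1-only libraries. Replicates lay close together and the fractions far apart, with PDGFRa-only 10.9-fold below PECAM1-only (log2 fold change -3.45 ± 0.17 (SE), adjusted p = 5.02e-13, edgeR). Kdm3a, an H3K9 demethylase, had 50.5 and 57.9 CPM in PDGFRa-only libraries, 102 and 85 CPM in double-positive libraries and 291 and 172 CPM in PECAM1-only libraries. Its PECAM1-only replicates differed by more than its double-positive ones, and no library of one fraction reached another (log2 fold change -2.09 ± 0.21 (SE), adjusted p = 5.38e-08, edgeR). Kdm4c, which acts on trimethylated H3K9, averaged 125 ± 19.5 CPM in PDGFRa-only, 189.8 ± 5.90 CPM in double-positive and 299 ± 32.3 CPM in PECAM1-only libraries (SD, n = 2; log2 fold change between PDGFRa-only and PECAM1-only -1.25 ± 0.16 (SE), adjusted p = 1.26e-06, edgeR). Kdm1a, the flavin-dependent H3K4 demethylase LSD1 known for switching off ESC enhancers during differentiation, had 106 and 84.6 CPM in PDGFRa-only libraries, 110.5 and 115 CPM in double-positive libraries and 203 and 225 CPM in PECAM1-only libraries (log2 fold change -1.17 ± 0.16 (SE), adjusted p = 3.1e-06, edgeR). The PDGFRa-only and double-positive ranges of Kdm1a lay next to each other, below PECAM1-only. Kdm6a and Kdm6b encode H3K27 demethylases. Kdm6a (UTX) averaged 81.0 ± 12.1 CPM in PDGFRa-only and 124 ± 4.36 CPM in PECAM1-only libraries and fell (-0.62 ± 0.17 (SE), adjusted p = 0.00294, edgeR), and Kdm6b (JMJD3) had 115 and 109 CPM in PDGFRa-only libraries, 95.7 and 112 CPM in double-positive libraries and 80.4 and 92.8 CPM in PECAM1-only libraries and was not called (0.37 ± 0.16 (SE), adjusted p = 0.0601, edgeR). Kdm6b passed without PDGFRa-only replicate 2 (then adjusted p = 0.0469).

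The H3K9 group showed a change of paralogue. All 6 genes were called between PDGFRa-only and PECAM1-only cells, 4 lower (66.7%) and 2 higher (33.3%), with a median of -0.58. Over all tested genes, 28.8% were lower and 30.1% higher. Suv39h1 and Suv39h2 encode paralogous methyltransferases of pericentric heterochromatin. Suv39h1 (GRCm38 chromosome X, 8061171 to 8074760) had 81.0 and 78.4 CPM in PDGFRa-only libraries, 60.1 and 55.4 CPM in double-positive libraries and 35.1 and 32.5 CPM in PECAM1-only libraries. Its order was opposite to that of most members, without overlap between fractions (log2 fold change 1.24 ± 0.18 (SE), adjusted p = 3.62e-06, edgeR), and 551 bases of its exons overlap those of Gm14820 on the other strand, a transcript with 183 counts against 2064. Suv39h2 had 21.3 and 29.5 CPM in PDGFRa-only libraries, 38.2 and 39.1 CPM in double-positive libraries and 57.8 and 49.6 CPM in PECAM1-only libraries (log2 fold change -1.07 ± 0.20 (SE), adjusted p = 0.000101, edgeR). Ehmt2 and Ehmt1 encode G9a and GLP, the partners of an H3K9 methyltransferase dimer. Ehmt2 had 85.1 and 72.4 CPM in PDGFRa-only libraries, 57.6 and 51.9 CPM in double-positive libraries and 46.0 and 38.6 CPM in PECAM1-only libraries, again highest in PDGFRa-only (log2 fold change 0.89 ± 0.18 (SE), adjusted p = 0.000233, edgeR). Ehmt1 averaged 53.3 ± 2.11 CPM in PDGFRa-only, 65.8 ± 0.958 CPM in double-positive and 71.7 ± 9.15 CPM in PECAM1-only libraries (SD, n = 2), overlaps Gm37139 on its own strand over 21 bases, and fell by less than the others (-0.43 ± 0.17 (SE), adjusted p = 0.0401, edgeR). That call was lost without PDGFRa-only replicate 1 (then adjusted p = 0.101), PECAM1-only replicate 1 (0.331), double-positive replicate 1 (0.0743) or double-positive replicate 2 (0.0683), and without a count filter (0.0805).

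Trim28 encodes KAP1, the corepressor through which KRAB zinc finger proteins recruit Setdb1 to transposable elements. It had 390.4 and 297 CPM in PDGFRa-only libraries, 578 and 480.2 CPM in double-positive libraries and 1238 and 993 CPM in PECAM1-only libraries, the highest level per length of all 50 genes in every fraction. PDGFRa-only lay 3.25-fold below PECAM1-only (log2 fold change -1.70 ± 0.18 (SE), adjusted p = 6.71e-08, edgeR). Setdb1 itself had 100.1 and 109.5 CPM in PDGFRa-only libraries, 141 and 123 CPM in double-positive libraries and 199.9 and 148 CPM in PECAM1-only libraries and a log2 fold change of -0.73 ± 0.17 (SE), adjusted p = 0.000984 (edgeR), which was lost without PECAM1-only replicate 1 (then adjusted p = 0.0532).

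NuRD, which joins a deacetylase to a remodelling ATPase, had members in every class: 4 lower, 2 higher and 3 not called of 9 (median -0.38). These are 44.4% lower and 22.2% higher, against 28.8% and 30.1% of all tested genes. The deacetylase genes fell together. Hdac2 had 61.1 and 66.3 CPM in PDGFRa-only libraries, 108 and 86.5 CPM in double-positive libraries and 163 and 150.4 CPM in PECAM1-only libraries (log2 fold change -1.30 ± 0.17 (SE), adjusted p = 1.17e-06, edgeR). Hdac1 had 12.6 and 13.7 CPM in PDGFRa-only libraries, 22.3 and 16.9 CPM in double-positive libraries and 29.4 and 30.4 CPM in PECAM1-only libraries and a close log2 fold change (-1.18 ± 0.23 (SE), adjusted p = 0.000131, edgeR). The count of Hdac1 is uncertain, since the copy Gm10093 is 99.4% identical over 1435 bases and held 1928 counts against 793. Chd4, the ATPase of NuRD, averaged 346 ± 49.4 CPM in PDGFRa-only, 399.7 ± 14.0 CPM in double-positive and 471 ± 21.9 CPM in PECAM1-only libraries (SD, n = 2) with a log2 fold change of -0.44 ± 0.16 (SE), adjusted p = 0.0201 (edgeR), a call that was lost without PDGFRa-only replicate 1 (then adjusted p = 0.118) and PECAM1-only replicate 1 (then adjusted p = 0.121). Mbd3, the subunit that sets NuRD apart from the form with Mbd2 and is needed for ESCs to leave pluripotency, had 66.5 and 41.5 CPM in PDGFRa-only libraries, 37.9 and 30.7 CPM in double-positive libraries and 27.7 and 31.4 CPM in PECAM1-only libraries. It was higher in PDGFRa-only, where the replicates also lay farthest apart (log2 fold change over PECAM1-only 0.86 ± 0.22 (SE), adjusted p = 0.00189, edgeR).

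Of the MTA scaffold genes of NuRD, 1 rose, 1 fell and 1 was not called. Mta2 had 107 and 89.0 CPM in PDGFRa-only libraries, 76.0 and 86.4 CPM in double-positive libraries and 62.7 and 65.1 CPM in PECAM1-only libraries and rose (0.61 ± 0.17 (SE), adjusted p = 0.00396, edgeR), a call that was lost with library-size scaling (then adjusted p = 0.102). Mta3 had 68.2 and 54.8 CPM in PDGFRa-only libraries, 80.6 and 74.6 CPM in double-positive libraries and 112 and 111 CPM in PECAM1-only libraries and fell (-0.86 ± 0.17 (SE), adjusted p = 0.000186, edgeR). Mta1 averaged 60.2 ± 11.7 CPM in PDGFRa-only and 78.3 ± 7.74 CPM in PECAM1-only libraries and was not called (-0.38 ± 0.18 (SE), adjusted p = 0.0771, edgeR), but passed with upper-quartile (then adjusted p = 0.00935) and library-size scaling (0.00337), with a minimum count of 50 (0.0442) and without PDGFRa-only replicate 1 (0.0111). The structural subunit gene Gatad2a averaged 347 ± 33.1 CPM in PDGFRa-only and 303 ± 3.54 CPM in PECAM1-only libraries and its paralogue Gatad2b 88.7 ± 7.02 CPM in PDGFRa-only and 111 ± 4.76 CPM in PECAM1-only libraries. Their log2 fold changes were 0.20 ± 0.15 (SE) (adjusted p = 0.279) and -0.32 ± 0.16 (SE) (adjusted p = 0.0897, edgeR), and Gatad2b passed with upper-quartile (then adjusted p = 0.00729) and library-size scaling (0.00235) and with a minimum count of 50 (0.0397). Outside NuRD, Chd7, a remodeller of enhancers that is mutated in human CHARGE syndrome, had 91.8 and 93.1 CPM in PDGFRa-only libraries, 109 and 125 CPM in double-positive libraries and 175 and 181 CPM in PECAM1-only libraries and fell (-0.94 ± 0.16 (SE), adjusted p = 2.85e-05, edgeR). Chd1, which binds methylated H3K4 and has been linked to open chromatin in ESCs, had a log2 change of -0.27 ± 0.17 (SE) (adjusted p = 0.181, edgeR), which passed with upper-quartile (then adjusted p = 0.0176) and library-size scaling (0.00623) and without PDGFRa-only replicate 2 (0.00932).

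Of 7 SWI/SNF genes, 2 were lower (28.6%), 1 was higher (14.3%) and 4 were not called. Of all tested genes 28.8% were lower and 30.1% higher, so the share of falls was that of genes at large. The SWI/SNF median of -0.19 was the closest to 0 of any complex. The ATPase gene Smarca4 had 308 and 264 CPM in PDGFRa-only libraries, 270.3 and 276 CPM in double-positive libraries and 237 and 281 CPM in PECAM1-only libraries. These libraries overlapped, and the log2 fold change between PDGFRa-only and PECAM1-only was 0.14 ± 0.16 (SE) (adjusted p = 0.46, edgeR). The scaffold genes moved in opposite directions. Smarcc1 (BAF155) had 216 and 189 CPM in PDGFRa-only libraries, 332 and 296 CPM in double-positive libraries and 550 and 529.5 CPM in PECAM1-only libraries and fell (-1.42 ± 0.16 (SE), adjusted p = 1.28e-07, edgeR). Smarcc2 (BAF170), which is scarce in the ESC form of the complex, had 81.9 and 55.7 CPM in PDGFRa-only libraries, 62.2 and 60.6 CPM in double-positive libraries and 40.3 and 42.0 CPM in PECAM1-only libraries. It was highest in PDGFRa-only, though its replicates there spanned the double-positive libraries (log2 fold change over PECAM1-only 0.73 ± 0.19 (SE), adjusted p = 0.00262, edgeR), and the call was lost with library-size scaling (then adjusted p = 0.0508). Arid1a, a DNA-binding subunit, averaged 342 ± 13.7 CPM in PDGFRa-only and 602 ± 25.2 CPM in PECAM1-only libraries and fell (-0.81 ± 0.15 (SE), adjusted p = 0.0001, edgeR). Its paralogue Arid1b had a log2 change of -0.19 ± 0.19 (SE) (adjusted p = 0.425), Smarcd1 one of -0.23 ± 0.21 (SE) (adjusted p = 0.356) and the histone reader gene Dpf2 one of -0.11 ± 0.17 (SE) (adjusted p = 0.615, edgeR). Of these, Arid1b passed with library-size scaling (then adjusted p = 0.0409), as did Smarcd1 (0.0412), which also passed without PDGFRa-only replicate 1 (0.00523).

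Among the INO80 and Tip60-p400 genes the ATPase gene Ino80 stood out. INO80 slides nucleosomes and is known to keep chromatin open at pluripotency genes in ESCs. Ino80 (GRCm38 chromosome 2, 119373042 to 119477687) had 49.2 and 53.2 CPM in PDGFRa-only libraries, 123 and 90.8 CPM in double-positive libraries and 310.1 and 211 CPM in PECAM1-only libraries. Each fraction kept to its own range, with a log2 fold change of -2.35 ± 0.20 (SE), adjusted p = 2.31e-09 between PDGFRa-only and PECAM1-only (edgeR). Ep400, the ATPase of Tip60-p400, averaged 226 ± 0.637 CPM in PDGFRa-only and 328 ± 4.99 CPM in PECAM1-only libraries and fell (-0.54 ± 0.15 (SE), adjusted p = 0.0041, edgeR). Kat5, the acetyltransferase Tip60 of that complex, averaged 18.7 ± 1.08 CPM in PDGFRa-only and 16.7 ± 0.298 CPM in PECAM1-only libraries and was not called (0.17 ± 0.23 (SE), adjusted p = 0.539, edgeR), and its exons overlap 426 bases of Rnaseh2c on the other strand.

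**Figure D3:**
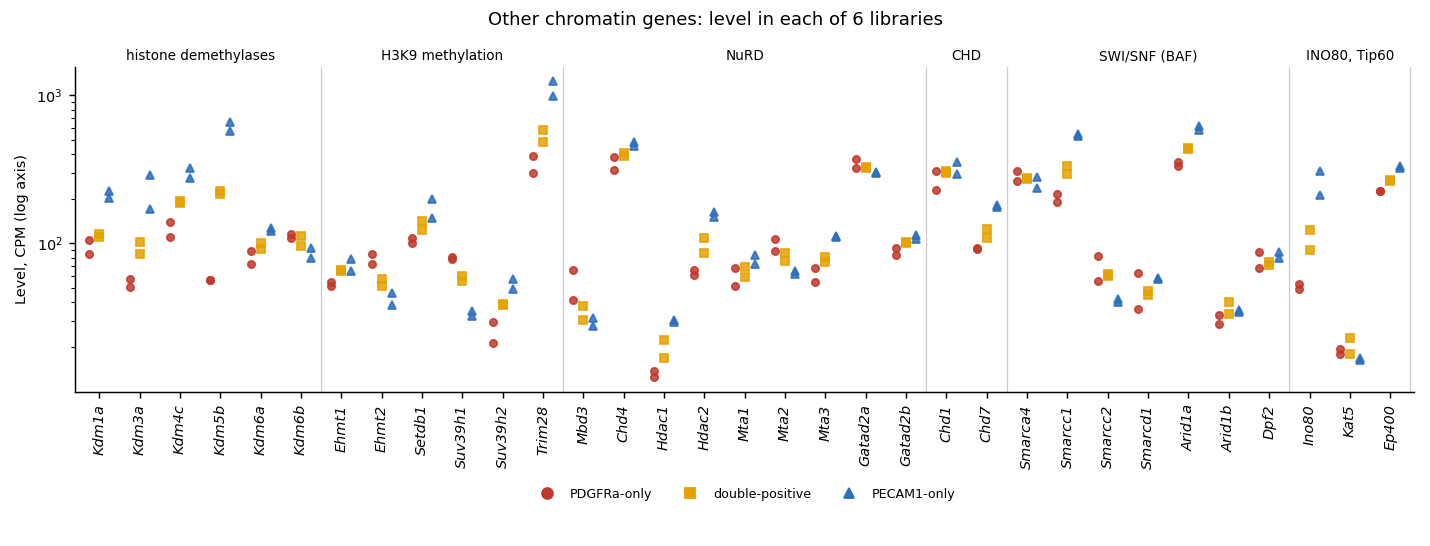
Level in CPM on a log axis of the 33 members outside Polycomb in each of the 6 libraries, with PDGFRa-only (circles), double-positive (squares) and PECAM1-only (triangles) drawn from left to right for each gene. For most genes the circles lie lowest and the triangles highest, as for Kdm5b, Trim28 and Ino80, while for Suv39h1, Ehmt2, Mbd3, Mta2 and Smarcc2 the circles reach highest.

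Set beside each other per exon length, paralogues changed their proportions. A share here is the CPM per kb of a gene divided by the sum over its paralogues in the same library, which does not depend on the scaling between libraries. Ezh1 held 29.0% and 28.9% in PDGFRa-only, 12.9% and 19.8% in double-positive and 4.27% and 5.27% in PECAM1-only libraries of the summed level of both EZH genes. Ring1 held 28.2% and 25.8% in PDGFRa-only, 21.2% and 20.0% in double-positive and 9.39% and 12.3% in PECAM1-only libraries of that of both RING1 genes. Both shares were highest in PDGFRa-only and lowest in PECAM1-only, with no overlap. Suv39h1 held 76.8% and 69.8% in PDGFRa-only, 57.8% and 55.2% in double-positive and 34.6% and 36.3% in PECAM1-only libraries of the SUV39H pair, so that Suv39h2 was the larger part in PECAM1-only and the smaller in the other fractions. Ehmt2 averaged 68.1% in PDGFRa-only, 54.7% in double-positive and 46.1% in PECAM1-only libraries of the EHMT pair, Mta2 43.1% in PDGFRa-only, 35.0% in double-positive and 24.2% in PECAM1-only libraries of the MTA genes, and Smarcc2 29.7% in PDGFRa-only, 19.8% in double-positive and 8.78% in PECAM1-only libraries of the SMARCC pair. In each of these the order of the fractions was the same, without overlap between PDGFRa-only and PECAM1-only libraries. Kdm6a averaged 44.7% in PDGFRa-only, 51.1% in double-positive and 61.7% in PECAM1-only libraries of the Kdm6a and Kdm6b sum.

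The polyhomeotic genes showed the widest shift in mean share of the 15 groups measured. Phc1 held 30.9% and 28.4% in PDGFRa-only, 82.0% and 77.6% in double-positive and 95.8% and 95.6% in PECAM1-only libraries of the level of Phc1, Phc2 and Phc3. Phc2 averaged 35.2% in PDGFRa-only, 7.69% in double-positive and 0.750% in PECAM1-only libraries, and Phc3 35.2% in PDGFRa-only, 12.5% in double-positive and 3.56% in PECAM1-only libraries. The last 2 were among the other PRC1 genes listed for comparison, and were picked out here after their values were seen. Phc2 had 41.1 and 26.4 CPM in PDGFRa-only libraries, 20.5 and 17.8 CPM in double-positive libraries and 5.39 and 4.86 CPM in PECAM1-only libraries, so its own level was also higher in PDGFRa-only (log2 fold change over PECAM1-only 2.70 ± 0.27 (SE), adjusted p = 2.81e-08, edgeR). Among the SWI/SNF ATPases, Smarca2 (BRM), which ESCs are known to hold at low level, took 26% and 32.1% in PDGFRa-only, 26.8% and 25.4% in double-positive and 2.15% and 1.39% in PECAM1-only libraries of the sum with Smarca4. Double-positive libraries lay beside PDGFRa-only ones for this pair, whose comparison was added after its values were seen. By contrast the Hdac1 share of Hdac1 and Hdac2 was 30.0% in PDGFRa-only, 29.4% in double-positive and 28.4% in PECAM1-only libraries, although the level of both genes fell. The size and steadiness of the Hdac1 share are uncertain, because its near-identical copy Gm10093 held 1928 counts against 793. Arid1b averaged 6.31% in PDGFRa-only, 5.93% in double-positive and 4.17% in PECAM1-only libraries of the ARID1 pair and Gatad2b 15.2% in PDGFRa-only, 18.0% in double-positive and 20.4% in PECAM1-only libraries of the GATAD2 pair. With 2 libraries against 2, the smallest exact two-sided permutation p for a share is 0.333, so these shares are a description with no test. The exon lengths taken matter for their size: with the full GENCODE transcript set the mean Ezh1 share was 44.2% in PDGFRa-only, 27.4% in double-positive and 8.88% in PECAM1-only libraries, and that of Smarca2 17.6%, 15.5% and 0.929%. Over 40 genes in 15 paralogue groups, the direction between PDGFRa-only and PECAM1-only was the same with either set of lengths in all 40. In groups of 2 genes, which most groups are, a change of lengths cannot alter the order of the libraries. For those pairs the agreement was fixed in advance and says nothing about the choice of lengths.

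**Figure D4:**
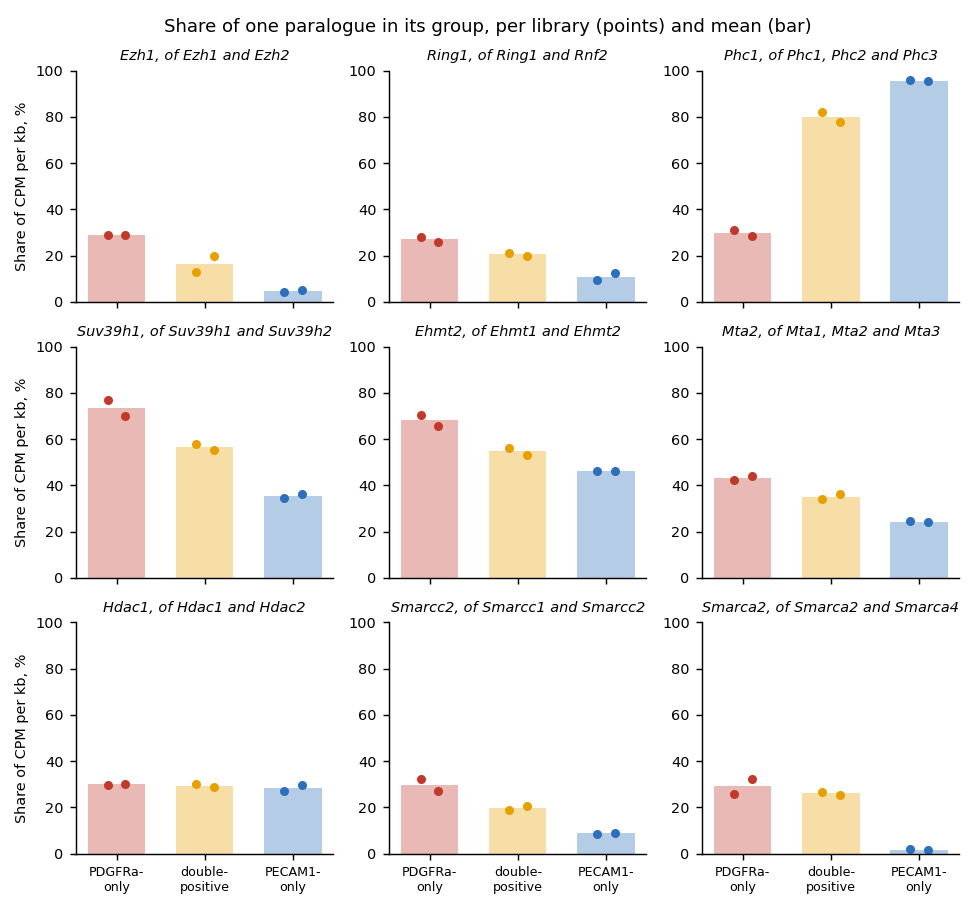
Share of 1 gene in the summed CPM per kb of its paralogues, in percent, for 9 paralogue groups; points are libraries and bars their mean, with PDGFRa-only left, double-positive in the middle and PECAM1-only right. Phc1 falls to 29.7% in PDGFRa-only libraries, against 95.7% in PECAM1-only libraries, Ezh1, Ring1, Suv39h1, Ehmt2, Mta2 and Smarcc2 are highest in PDGFRa-only, and Hdac1 stays between 27.2% and 30.1%. The Hdac1 share is uncertain because of its near-identical copy Gm10093.

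Levels between genes were compared per exon length, in mean CPM per kb. Trim28 ranked first of the 50 in each fraction, at 106 CPM per kb in PDGFRa-only, 163 in double-positive and 344 in PECAM1-only libraries. Phc1 ranked 42 in PDGFRa-only, 9 in double-positive and 3 in PECAM1-only cells, at 6.59 CPM per kb in PDGFRa-only, 46.5 in double-positive and 152 in PECAM1-only libraries. Kdm5b ranked 44, 20 and 11 in the same order of fractions, and Jarid2 24, 6 and 4. Ezh1 moved the other way, at ranks 27, 36 and 46. Arid1a kept rank 7 throughout.

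Double-positive cells, which carry both surface proteins, mostly lay between the other fractions. The double-positive mean lay between the other 2 for 43 of 50 members (86.0%), against 76.1% of all tested genes; the exceptions were Bmi1, Cbx2, Cbx7, Smarcd1, Arid1b, Dpf2 and Kat5. For 33 members the 3 fractions did not overlap in this order (27 lowest and 6 highest in PDGFRa-only), which is 66.0%, against 42.6% of all tested genes. Phf19 is among the 27 and Cbx8 among the 6. Both passed the filter on low counts only through fractions where they are high, so part of their order was fixed in advance. The comparisons between fractions share libraries, so their values are set side by side and not correlated. Against PECAM1-only, 24 members were lower in double-positive cells, 4 were higher (Ezh1, Ring1, Suv39h1 and Smarcc2) and 22 were not called by edgeR, with a median of -0.42; over all genes 38.2% were called, 21.8% higher and 16.4% lower. Phc1 had a log2 fold change of -1.71 ± 0.17 (SE), adjusted p = 4.44e-08, Kdm5b of -1.49 ± 0.16 (SE), adjusted p = 1.22e-07, Phf19 of -1.90 ± 0.34 (SE), adjusted p = 0.000125 and Ezh1 of 1.31 ± 0.21 (SE), adjusted p = 3e-05 (edgeR). PRC2 genes gave 6 of the falls and PRC1 genes 6, and in NuRD 3 of 9 fell.

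Leaving out single libraries removed many of the smaller calls between double-positive and PECAM1-only. Without double-positive replicate 1 these were Eed, Suz12, Ring1, Cbx7, Mta3, Chd7, Smarcc2 and Arid1a (adjusted p between 0.0795 and 0.26), and without double-positive replicate 2 Ezh2, Eed, Ring1, Pcgf2, Pcgf6, Cbx2, Cbx7, Hdac1, Hdac2, Mta3, Smarcc2 and Arid1a (adjusted p between 0.0662 and 0.327). Leaving out PECAM1-only replicate 1 removed Eed, Suz12, Ring1, Pcgf6, Cbx7, Kdm2b, Kdm4c, Hdac1, Mta3, Smarcc2 and Arid1a (adjusted p between 0.0581 and 0.606), and PECAM1-only replicate 2 Suz12, Ring1, Pcgf2, Cbx7, Hdac1, Mta3, Smarcc2 and Arid1a (adjusted p between 0.0513 and 0.265). The count of lower members was 14 without double-positive replicate 2 and 15 without PECAM1-only replicate 1, against 24. The calls of Phc1, Kdm5b, Phf19, Jarid2, Mtf2, Ezh1 and Suv39h1 held in all of these. Among all genes, rises were 57.0% of calls with TMM, 43.3% with upper-quartile scaling (2528 higher, 3306 lower) and 39.8% with library-size scaling (2421 higher, 3658 lower).

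Between PDGFRa-only and double-positive cells fewer genes differed. Of the 50, 13 were lower, 2 were higher (Ehmt2 and Mbd3) and 35 were not called by edgeR (median -0.24); over all genes 17.6% were called, 5.94% higher and 11.7% lower. The falls included Phc1 (-2.83 ± 0.18 (SE), adjusted p = 6.39e-10), Kdm5b (-1.96 ± 0.16 (SE), adjusted p = 2.52e-08), Jarid2 (-1.51 ± 0.20 (SE), adjusted p = 1.51e-05) and Ino80 (-1.06 ± 0.20 (SE), adjusted p = 0.000724, edgeR). PRC2 gave 4 of the 13, Ezh2, Jarid2, Mtf2 and Phf19, the last of which passed the filter on low counts without any PDGFRa-only library. Ezh1 was not called here (0.46 ± 0.20 (SE), adjusted p = 0.109, edgeR), though it passed without PDGFRa-only replicate 1 (then adjusted p = 0.0315) and without double-positive replicate 2 (0.0383). Without PDGFRa-only replicate 1 the calls of Ezh2, Kdm3a, Kdm4c, Ehmt2, Suv39h2 and Mbd3 (adjusted p between 0.052 and 0.415) were lost, and without PDGFRa-only replicate 2 those of Kdm3a and Trim28 (adjusted p between 0.0556 and 0.0619). Without double-positive replicate 1 the calls lost were Ezh2, Kdm3a, Kdm4c, Ehmt2, Suv39h2, Trim28, Mbd3, Hdac2 and Smarcc1 (adjusted p between 0.0608 and 0.249), and without double-positive replicate 2 they were Kdm4c, Ehmt2, Suv39h2 and Mbd3 (adjusted p between 0.106 and 0.285). PECAM1-only libraries enter this comparison through the shared spread, the scaling and the set of genes tested, and leaving out replicate 1 or replicate 2 of them each removed Ehmt2, Suv39h2 and Mbd3 (adjusted p between 0.0598 and 0.0668). The count of lower members was 6 without double-positive replicate 1, and the count of all genes called was 1326 without that library and 1444 without double-positive replicate 2, against 2450. With upper-quartile scaling the members split into 0 higher and 14 lower, with 4 higher at an unadjusted p below 0.05, and with library-size scaling into 0 and 15, with 3 higher at an unadjusted p below 0.05 (edgeR). Among all genes, rises were 33.7% of calls with TMM and 21.9% with library-size scaling (528 higher, 1878 lower), 16.4% without double-positive replicate 1, 21.2% without double-positive replicate 2 and 41.9% without PDGFRa-only replicate 2 (1235 higher, 1710 lower).

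The wider machinery was read from 10 lists of further genes of the same pathways, 156 genes in all, of which 152 were tested. Between PDGFRa-only and PECAM1-only cells 71 of them were lower and 26 higher, 46.7% and 17.1%, with a median of -0.33 (edgeR). Of all tested genes, 28.8% were lower and 30.1% higher, and the counts of each list below stand beside these shares. Among 6 other PRC2 genes, 4 rose and 2 fell (median 1.07). Rbbp7, a histone-binding subunit that PRC2 shares with NuRD, had 343 and 538 CPM in PDGFRa-only libraries and 183 and 185 CPM in PECAM1-only libraries and rose (1.26, adjusted p = 5.44e-06), as did the PRC2 inhibitor gene Epop (1.42, adjusted p = 4.53e-06). Aebp2, which acts beside Jarid2, had 46.0 and 53.3 CPM in PDGFRa-only libraries and 276 and 205 CPM in PECAM1-only libraries and fell (-2.27, adjusted p = 1.53e-09, edgeR). Of 21 other PRC1 and PR-DUB genes, 9 fell (42.9%) and 6 rose (28.6%), with a median of -0.12. Scml2, a Polycomb protein gene, had 6.51 and 3.32 CPM in PDGFRa-only libraries and 171 and 138 CPM in PECAM1-only libraries and fell (-5.03, adjusted p = 6.85e-13), as did Mga (-1.20, adjusted p = 1.13e-06) and the deubiquitinase gene Usp7 (-1.10, adjusted p = 8.61e-06, edgeR).

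Of 14 MLL and COMPASS genes, whose products methylate H3K4, 5 fell (35.7%) and 3 rose (21.4%), against 28.8% and 30.1% of all tested genes (median 0.03). Kmt2c (0.35, adjusted p = 0.0596) and Kmt2d (0.12, adjusted p = 0.501), the enzymes of enhancers, were not called, while the core subunit gene Ash2l fell (-1.55, adjusted p = 3.19e-08) and Men1 rose (1.03, adjusted p = 6.64e-05, edgeR). Among 13 other demethylase genes tested, 5 fell, with Jmjd1c at -1.79 (adjusted p = 9.48e-09) and Kdm3b at -0.75 (adjusted p = 0.000293), and 2 rose, with Phf2 at 1.70 (adjusted p = 1.63e-06, edgeR; median -0.23). Heterochromatin genes fell in 10 of 14 and rose in 1 (median -0.82). Zfp57, a KRAB zinc finger gene whose protein guards imprints with Trim28, had 38.8 and 36.6 CPM in PDGFRa-only libraries and 334 and 249 CPM in PECAM1-only libraries and fell (-2.95, adjusted p = 2.48e-11). Cbx5 (-0.75, adjusted p = 0.000348) and Atrx (-0.89, adjusted p = 9.12e-05) also fell, and Pphln1 of the HUSH complex rose (0.85, adjusted p = 8.8e-05, edgeR).

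Other NuRD, CoREST, Sin3 and deacetylase genes were mixed, with 8 lower and 7 higher of 21 (median -0.11). These are 38.1% and 33.3%, against 28.8% and 30.1% of all tested genes. Hdac7 had 23.8 and 15.7 CPM in PDGFRa-only libraries and 1.31 and 2.20 CPM in PECAM1-only libraries and rose (3.47, adjusted p = 4.85e-08), while Rcor2, the CoREST subunit known from ESCs, fell (-2.22, adjusted p = 1.56e-08), as did Ncor1 (-0.84, adjusted p = 8.61e-05, edgeR). Sall4, a NuRD-binding pluripotency factor, averaged 521 ± 54.1 CPM in PDGFRa-only and 570.4 ± 68.5 CPM in PECAM1-only libraries and was not called (-0.13, adjusted p = 0.513, edgeR). Of 18 other SWI/SNF genes tested, 9 fell and 3 rose (median -0.44). Smarca2 had 124 and 143 CPM in PDGFRa-only libraries and 5.97 and 4.55 CPM in PECAM1-only libraries and rose (4.66 ± 0.22 (SE), adjusted p = 1.77e-13, edgeR). Bcl11a, which encodes a transcription factor found with SWI/SNF, had 0 counts in PDGFRa-only and 69 and 46 counts in PECAM1-only libraries, at least 32.0-fold lower against a floor of 3 counts over the fraction. Bcl11a is among the 9 that fell, but it passed the filter on low counts only through the other fractions and so had to be lower. Of the PBAF genes, Pbrm1 (-0.30, adjusted p = 0.101) was not called and Arid2 (-0.57, adjusted p = 0.00345, edgeR) fell, a call that was lost without PECAM1-only replicate 1 (then adjusted p = 0.0602).

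Of 23 other INO80, SRCAP and Tip60 genes, 10 fell (43.5%, against 28.8% of all tested genes) and 13 were not called (median -0.34). Ruvbl2, an ATPase shared by these complexes, fell (-0.85, adjusted p = 0.000105), as did Ing3 (-1.13, adjusted p = 0.00102), and Trrap was not called (0.28, adjusted p = 0.114, edgeR). Among 13 CHD and ISWI genes, 7 fell and 1 rose (median -0.61). Chd9 had 27.4 and 30.2 CPM in PDGFRa-only libraries and 525 and 461 CPM in PECAM1-only libraries and fell (-4.09, adjusted p = 7.74e-14), Bptf (-1.22, adjusted p = 1.39e-06) and Baz2a (-0.95, adjusted p = 1.84e-05) fell, and the ISWI ATPase gene Smarca1 rose (2.24, adjusted p = 6.52e-08, edgeR). Of 11 acetyltransferase genes, 7 fell (median -0.68), with Kat2b at -2.88 (adjusted p = 1.67e-09), Hat1 at -1.07 (adjusted p = 1.03e-05) and the enhancer acetyltransferase gene Ep300 at -0.68 (adjusted p = 0.000642, edgeR).

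**Figure D5:**
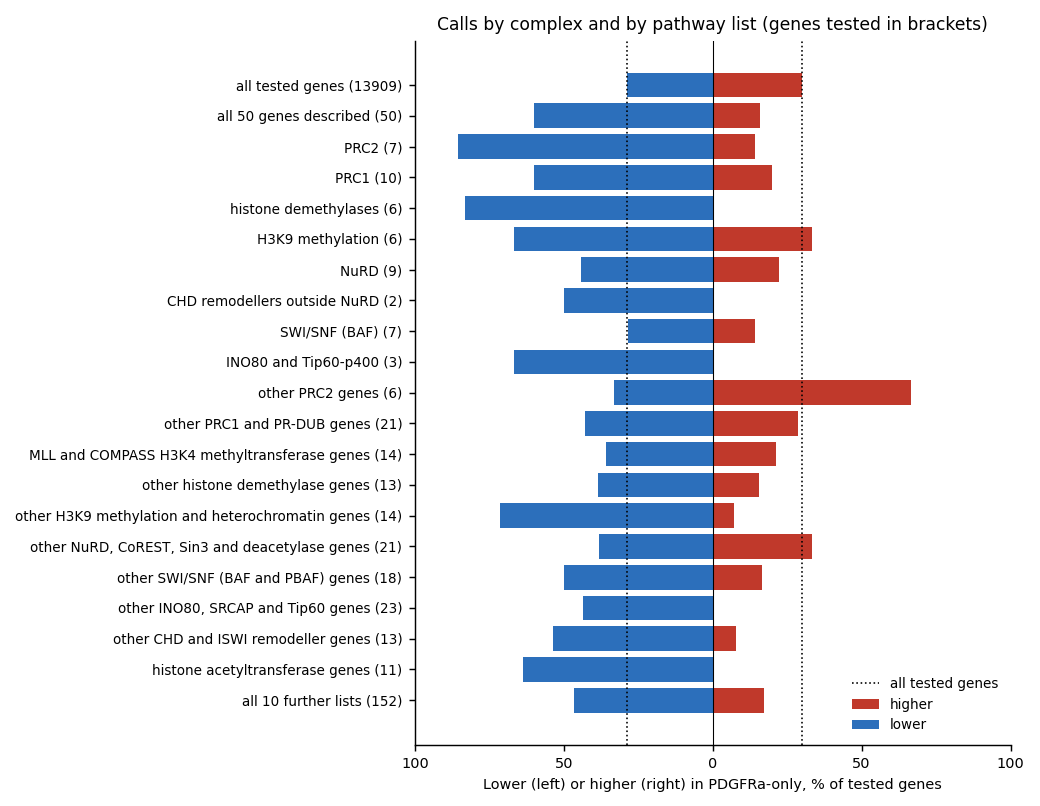
Percent of tested genes called lower (blue, left of 0) and higher (red, right of 0) in PDGFRa-only than in PECAM1-only cells, for all tested genes, the 50 genes described, each complex and 10 further lists; dotted lines mark the 28.8% lower and 30.1% higher of all tested genes. PRC2 (85.7% lower) and the histone demethylases (83.3% lower) reach farthest to the left, and other PRC2 genes (66.7% higher) farthest to the right. The PRC2 bar counts Phf19, the PRC1 bar Cbx8 and that of other SWI/SNF genes Bcl11a. The filter on low counts fixed the direction of each.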

How the data were processed

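RNA was sequenced from 3 sorted fractions of mouse ESC cultures with 2 libraries each. The authors deposited whole-number read counts per gene and an RPKM table, which was not used here. The submitters' processing notes name cutadapt 1.2.1, TopHat2 2.0.8b, Bowtie2 2.1.0, HTSeq 0.5.4p3 and GRCm38; how each was set, with or without strand and for reads that map to copies, is not given in the sources used here. The members and gene lists were chosen with earlier results of these data known. All 50 members are named, and of each further list the 2 genes of highest mean CPM and the called genes with the largest rise and fall, of which 1 is not reported here; others are named as picked after their values were seen.

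Genes with enough counts (filterByExpr, minimum count 10) were scaled by TMM and fitted over all 6 libraries, 1 mean per fraction, with edgeR 4.0.16 (limma 3.58.1, R 4.3.3). The quasi-likelihood test was two-sided, with Benjamini-Hochberg adjusted p-values and a threshold of 0.05 over 13909 genes. SE is the size of the log2 fold change divided by the square root of F. CPM are counts per 1000000 of the TMM-scaled library size, and SD is over 2 libraries. Promoters were matched by symbol to RefSeq. Of 156 further genes 155 were matched, 10 of them by gene ID. Levels per kb used exon lengths of the GENCODE M21 basic set, and transcripts were compared for near-identical copies with minimap2 2.31. The test was checked on simulated counts with 200 genes changed in the PDGFRa-only fraction. In the data 8205 genes were called between PDGFRa-only and PECAM1-only, so the check does not cover the dependence on scaling. Depth was 4809661 to 7273669 counts, which limits genes of few counts, and the counting intervals cover counting error only. DESeq2 1.42.0, other scalings, filters, fits and left-out libraries were alternatives.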

Additional observations from a re-analysis of the deposited data

How the results depend on the processing

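Over 13 alternatives, 1946 member values were refitted and no called value changed direction: 1784 stayed on their side of the threshold, 102 lost and 60 gained it. Between PDGFRa-only and PECAM1-only, 5 of 8 rises and 25 of 30 falls were called in all of them, against 2 of 4 and 10 of 24 between double-positive and PECAM1-only, and 0 of 2 and 6 of 13 between PDGFRa-only and double-positive. Members higher in double-positive than in PECAM1-only numbered 4, but 2 with upper-quartile scaling, library-size scaling and DESeq2, and 2 to 4 over left-out libraries; members lower numbered 14 to 27 over left-out libraries, against 24. Members higher in PDGFRa-only than in double-positive numbered 2, but 0 with upper-quartile scaling, library-size scaling, a minimum count of 50, the 2 fractions alone and DESeq2, 1 without a count filter, and 0 to 2 over left-out libraries. At an unadjusted p below 0.05 they numbered 4 by edgeR with upper-quartile scaling, a minimum count of 50 and the 2 fractions alone, 4 by DESeq2 and 3 with library-size scaling. Members lower there numbered 6 to 12 over left-out libraries, against 13, and all genes called 1326 to 2945, against 2450. The causes were not tested. Same-numbered libraries deviated together with correlations of 0.132, -0.029 and 0.183, which does not establish pairing; with the number as a replicate block, 4 members were higher and 14 lower in PDGFRa-only than in double-positive, Kdm6b passed as higher in PDGFRa-only than in PECAM1-only (adjusted p = 0.0457), and 8397, 5644 and 2834 genes were called in the comparisons PDGFRa-only with PECAM1-only, double-positive with PECAM1-only and PDGFRa-only with double-positive, against 8205, 5319 and 2450. Where a left-out library leaves 1 in a fraction, that one is assumed to vary like the other libraries, although the PDGFRa-only replicates stood farther apart. Depth limits Phf19 and Cbx8 most, the members with the fewest counts.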

Other observations

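Histone variants and histone chaperones, which supply the nucleosomes that the complexes act on, were read from lists chosen after the values of the members were seen, and the genes named were picked from these values. Of 11 histone variant and linker genes tested, 6 were lower and 3 higher in PDGFRa-only than in PECAM1-only cells (median log2 fold change -0.38). That is 54.5% lower and 27.3% higher, against 28.8% and 30.1% of all tested genes. H1f0, the linker histone known from cells that divide little, had 133 and 139 CPM in PDGFRa-only libraries, 90.5 and 95.9 CPM in double-positive libraries and 12.4 and 17.4 CPM in PECAM1-only libraries. Its PECAM1-only libraries lay far below the others (log2 fold change of PDGFRa-only over PECAM1-only 3.19 ± 0.20 (SE), adjusted p = 1.41e-11, edgeR). H2afj (1.41 ± 0.22 (SE), adjusted p = 1.52e-05) and Hist1h1c (1.12 ± 0.25 (SE), adjusted p = 0.000552, edgeR) rose as well. The falls included both H2A.Z genes, H2afz (-0.87 ± 0.20 (SE), adjusted p = 0.000755) and H2afv (-0.96 ± 0.21 (SE), adjusted p = 0.000495), and the macroH2A gene H2afy2 (-0.93 ± 0.24 (SE), adjusted p = 0.00208, edgeR). The other falls were H2afx, H3f3a and Cenpa. Near-identical copies were searched for the members only, so whether copies affect the counts of these histone genes was not tested. The call of H2afx was lost without PDGFRa-only replicate 2 (then adjusted p = 0.265) or PECAM1-only replicate 2 (0.373), and that of H3f3a without PECAM1-only replicate 2 (0.166), and that of Cenpa without any one of the 6 libraries (adjusted p between 0.0682 and 0.204).

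Of 17 histone chaperone genes, 11 fell (64.7%) and 1 rose (5.88%), against 28.8% and 30.1% of all tested genes (median -0.58). Nasp, a chaperone of histone H3 and of linker histones, had 323 and 377 CPM in PDGFRa-only libraries, 645 and 606 CPM in double-positive libraries and 1323 and 1291 CPM in PECAM1-only libraries, falling in the order of the fractions without overlap (log2 fold change of PDGFRa-only over PECAM1-only -1.90 ± 0.16 (SE), adjusted p = 2.4e-09, edgeR). Supt16, a subunit of the FACT complex that opens nucleosomes for polymerase, fell (-1.27 ± 0.18 (SE), adjusted p = 3.41e-06), as did Npm1 (-1.29 ± 0.16 (SE), adjusted p = 6.85e-07) and the H2A.Z chaperone gene Anp32e (-1.05 ± 0.16 (SE), adjusted p = 6.83e-06, edgeR). Ubn1, of the HIRA complex, rose (1.34 ± 0.17 (SE), adjusted p = 8.94e-07, edgeR). Without PECAM1-only replicate 1 the calls of Asf1a (then adjusted p = 0.0548) and Supt6 (0.102) were lost, and without PECAM1-only replicate 2 that of Chaf1b (0.0719). Cell cycle genes were lower in the same libraries, as given above, and their part in these differences was not tested.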
